A study of Homo sapiens with 4 samples.

Results

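The genes examined stand where Wnt signaling meets cell proliferation: the MYC family genes MYC, MYCN and MYCL, their partner MAX, the MAX-binding antagonist MXD4, and the D-type cyclin genes CCND1, CCND2 and CCND3. These 8 genes were taken by gene symbol from a table of 58365 annotated genes, in which each symbol had 1 row. The libraries came from H1, an established human embryonic stem cell line, at day 2 of hematopoietic differentiation. All cells were cultured in Custom mTeSR1 with activin A and BMP4, growth factors that direct pluripotent cells toward mesoderm. The sample labels give 40 ng/ml activin A and 50 ng/ml BMP4, whereas the study's methods give these doses the other way round. The DMSO group (2 libraries) was the control for IWP2, and the IWP2 group (2 libraries) received IWP2 for the 2 days. The IWP2 dose is not given in the sources used here. Nothing in the labels says whether the 2 libraries of a group came from separate cultures, so p-values measure only the spread between these libraries, which may be technical. All results rest on 1 cell line.

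IWP2 blocks Porcupine, the enzyme that attaches the lipid that Wnt ligands need for secretion, and so limits signaling through the Wnts that treated cells make. When Wnt ligands are received, beta-catenin accumulates and works with TCF/LEF factors on target genes, among which MYC and CCND1 are textbook examples, best known from intestinal epithelium and colorectal cancer. MYC proteins bind DNA as dimers with MAX and promote ribosome production, nucleotide synthesis and growth. MXD proteins such as MXD4 compete for MAX and repress the same sites. D-type cyclins activate CDK4 and CDK6, which phosphorylate the RB protein and release E2F factors for entry into S phase. In pluripotent stem cells MYC and MYCN are both known to be active and the cell cycle is short.

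The question was whether these proliferation genes were lower under an inhibitor of endogenous Wnt secretion. Among the 8 genes, CCND3 fell and CCND2 rose under IWP2, whereas MYC, MYCN, MYCL, MAX, MXD4 and CCND1 did not pass the test in either direction. CCND3 went from 28.7 ± 0.892 FPKM in DMSO to 12.1 ± 1.12 in IWP2 (mean ± SD, n = 2 per group). CCND2 went from 14.3 ± 1.02 to 27.0 ± 2.08 FPKM (n = 2 per group). FPKM, the number of fragments scaled by gene length and sequencing depth, is a level per length and can be compared between genes. The test was limma on log2(FPKM + 1) over all genes with a mean FPKM of at least 1 in the 4 libraries, with Benjamini-Hochberg adjustment and a threshold of 0.05, and all 8 genes passed this filter. In these bulk samples, a change in the number of cells of a type and a change in RNA per cell cannot be told apart.

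Of the 8 genes, 2 were called, against 15.2% of the 14022 genes tested. One was called higher, where 6.75% of all tested genes were higher, and 1 was called lower, where 8.44% were lower. For 5 of the 8 genes the libraries of the 2 groups did not overlap. This was the case for 59.8% of all tested genes, so the absence of overlap by itself did not set these genes apart.

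**Figure D1:**
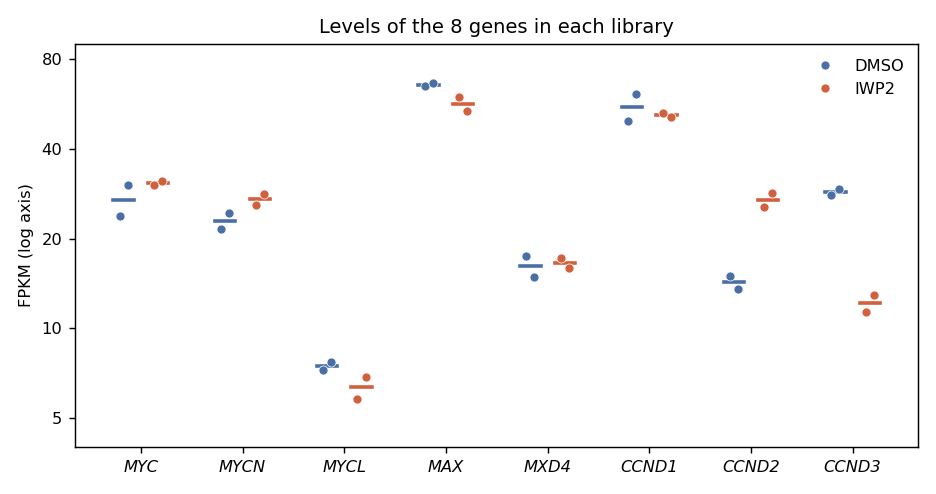
FPKM (log axis) of the 8 genes in each of the 4 libraries, with a point per library and a bar at the mean of each group. CCND2 was between 13.6 and 15.0 in DMSO and between 25.5 and 28.5 in IWP2, and CCND3 was between 28.1 and 29.4 in DMSO and between 11.3 and 12.9 in IWP2.

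The treatment was checked on genes that respond to Wnt in many tissues. AXIN2, a feedback inhibitor that is a standard reporter of beta-catenin activity, was at 14.2 and 15.2 FPKM in DMSO and at 6.45 and 5.58 in IWP2. LEF1, a TCF/LEF factor induced by the pathway itself, was at 9.34 and 9.70 against 0.144 and 0.239 FPKM. SP5, a direct target, was at 53.2 and 47.0 against 0.379 and 0.363 FPKM. Of 13 tested genes of the Wnt response list, 10 were called lower and none higher, a share of 76.9% against 15.2% of all tested genes. Of those not called, ZNRF3 (5.66 and 5.97 FPKM in DMSO against 7.04 and 6.49 in IWP2) was higher without overlap. So was NKD2 (0.855 and 0.852 against 1.10 and 1.41 FPKM), and the groups of RNF43 overlapped. The median log2 difference of this list was -1.79, compared with -0.02 over all tested genes. The others with the largest falls were LGR5 (-4.54), DKK1 (-4.24) and NKD1 (-4.12), a receptor for R-spondin and a pair of feedback inhibitors. The calls of SP5, LGR5, DKK1 and NKD1 held in all 12 alternative settings, and that of AXIN2 was lost when either IWP2 library was left out or low genes were not filtered (highest adjusted p = 0.059), with log2 differences between -1.28 and -1.07.

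The state of the cells also moved with the treatment. The marker counts below stand beside 15.2% called of all tested genes. All 7 primitive streak and mesoderm markers fell, their summed level going from between 907 and 1129 FPKM in DMSO to between 52.8 and 56.9 in IWP2. The gene T was both among these markers and in the Wnt response list, so its fall counts in both. Of 5 definitive endoderm markers 4 fell, with sums of 1815 to 2202 against 123 to 134 FPKM. Most of the DMSO sum was CER1, at 1612 and 2048 FPKM against 38.6 and 34.2 in IWP2. SOX17 was the marker not called, at 155 and 104 FPKM in DMSO and 79.7 and 94.9 in IWP2, and made up most of the IWP2 sum. Of 3 pluripotency markers 2 rose (POU5F1 and SOX2, transcription factors of the pluripotency network), with sums of 581 to 774 against 1907 to 1924 FPKM. Most of each sum was POU5F1, at 751 and 571 FPKM in DMSO and 1854 and 1844 in IWP2. Of 3 tested amnion and trophoblast markers 2 rose (TFAP2A and KRT7), with sums of 56.6 to 57.1 against 74.5 to 80.3 FPKM. GATA3 was lower without overlap and was not called (39.7 and 43.7 against 34.6 and 37.7 FPKM). The hormone genes CGA and CGB5 were at or near 0 in every library. TFAP2A lost its call when either IWP2 library was left out, and both TFAP2A and KRT7 lost it when low genes were not filtered. The call of POU5F1 was lost when IWP2 library 1 (adjusted p = 0.063) or IWP2 library 2 (adjusted p = 0.056) was left out, and that of SOX2 held in all 12 alternative settings. None of the 3 neural markers reached the level filter. Of 3 stromal markers 2 were tested and 1 fell, with sums of 31.8 to 38.5 FPKM in DMSO against 23.0 to 23.4 in IWP2: LUM, a matrix proteoglycan, was at 3.10 and 2.80 against 0.108 and 0.178 FPKM, the collagen gene COL1A1 was at 28.7 and 35.7 against 22.9 and 23.2 and was not called, and DCN was at or near 0. Of 6 endothelial and blood markers only CD34 was tested and was not called (5.43 and 2.04 FPKM in DMSO, 1.81 and 1.79 in IWP2), their sums were 2.86 to 5.93 against 2.22 to 2.24 FPKM, and PTPRC and HBG1 were at or near 0. The part of this difference in cell state in the results for the 8 genes was not tested.

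The promoter sequences for 5 of the 8 genes were matched in RefSeq (GRCh38.p14). CCND3, the gene that fell, is shown at the start whose window held matches and at one inside the gene, and MYCN is shown because its window held a TCF/LEF match although the gene was not called. The search covered the 250 bases before each start, on both strands, for the TCF/LEF core (CTTTGA or CTTTGT), the E-box bound by MYC and MAX (CACGTG), and an E2F site (TTTCCCGC or TTTGGCGC). Capitals mark the matches. The first CCND3 window (chr6:42048689-42048938, minus strand) lay wholly in annotated untranslated sequence of longer CCND3 transcripts, so only 30 bases around each of its matches are given. The second CCND3 window was cut to its 210 bases outside annotated exons (chr6:41941849-41942058, minus strand), inside the CCND3 gene, and held none of the motifs. The window of the remaining CCND3 start (chr6:41939206-41939455, minus strand) held none either and is not printed. The MYCN window (chr2:15940300-15940549, plus strand) lay upstream of MYCN and overlapped the antisense gene MYCNOS.
CCND3, first start, 71 bases upstream: gagcaccagcccCTTTGTctcctccgcccc
CCND3, first start, 6 bases upstream: tctggatcggcggcgcggcgcggaCTTTGT
CCND3, second start: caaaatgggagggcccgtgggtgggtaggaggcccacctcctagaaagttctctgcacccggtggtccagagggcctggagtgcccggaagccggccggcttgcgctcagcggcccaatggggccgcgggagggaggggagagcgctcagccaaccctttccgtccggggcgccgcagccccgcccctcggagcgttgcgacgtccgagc
MYCN: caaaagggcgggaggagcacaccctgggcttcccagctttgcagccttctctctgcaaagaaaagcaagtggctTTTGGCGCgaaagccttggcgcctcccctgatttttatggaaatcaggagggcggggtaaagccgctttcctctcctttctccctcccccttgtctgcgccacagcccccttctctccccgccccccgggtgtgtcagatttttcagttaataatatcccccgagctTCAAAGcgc

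A TCF/LEF core was present in 2 of the 8 windows of these genes and in 22.8% of all 35116 promoter windows of this length. The E-box was found in 1 window, that of MXD4, and in 6.34% of all windows. The E2F site was found in 1 window, that of MYCN, 176 bases before the start, and in 1.93% of all windows. A letter match in such a window describes the sequence and does not show that a factor binds there.

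CCND3 encodes cyclin D3, the D cyclin best known from lymphoid and other blood cells (chr6:41934933-42050357, GRCh38). Its level was 28.1 and 29.4 FPKM in the DMSO libraries and 11.3 and 12.9 in the IWP2 libraries. Both treated libraries were below both controls, and the gap was wide next to the spread within either group. The log2 difference was -1.18 (SE 0.106, 95% interval -1.45 to -0.92, limma adjusted p = 0.0034), a mean 2.37-fold lower in IWP2. In the order of the 8 genes by level, CCND3 was in position 3 in DMSO and in position 7 in IWP2. The call was lost when IWP2 library 1 was left out, with a log2 difference of -1.10. It was kept close to the threshold when genes under the level filter were included in the fit (limma adjusted p = 0.049).

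CCND2 encodes cyclin D2, which is widely used in stem and progenitor cells and in the ovary (chr12:4273772-4305350, GRCh38). The DMSO libraries had 15.0 and 13.6 FPKM of CCND2, and the IWP2 libraries had 25.5 and 28.5. Again the groups did not overlap, in the opposite direction to CCND3. The log2 difference was 0.87 (SE 0.109, 95% interval 0.60 to 1.15, limma adjusted p = 0.0080), a mean 1.89-fold higher in IWP2. CCND2 moved from position 7 to position 5 among the 8 genes. Its call was lost without IWP2 library 1 (adjusted p = 0.072), without IWP2 library 2 (adjusted p = 0.088) and when genes under the level filter were included in the fit (adjusted p = 0.066). With these settings its log2 difference remained between 0.80 and 0.95.

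CCND1 encodes cyclin D1, the D cyclin that is the textbook Wnt target (chr11:69641087-69654474, GRCh38). It was the most abundant D cyclin in every library, at 49.7 and 60.9 FPKM in DMSO and at 52.9 and 51.2 in IWP2. Both IWP2 values lay between the 2 control values. The log2 difference was -0.08 (SE 0.119, 95% interval -0.38 to 0.22, limma adjusted p = 0.70), and it turned to 0.06 without DMSO library 2. The interval contains no fall as large as that of CCND3.

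**Figure D2:**
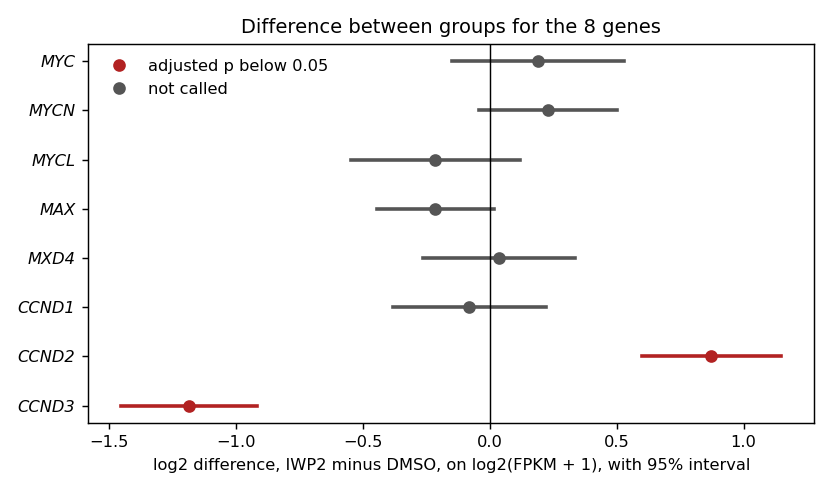
Log2 difference, IWP2 minus DMSO, on the log2(FPKM + 1) scale, with its 95% interval, for each of the 8 genes. The intervals of CCND2 (0.60 to 1.15) and CCND3 (-1.45 to -0.92) lie on opposite sides of 0, and those of the other genes include 0.

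The 3 D cyclins were also summed, and each was expressed as a share of the sum. Their summed FPKM was 92.9 and 103.9 in DMSO and 89.7 and 92.5 in IWP2. Both IWP2 sums lay below both DMSO sums, by a narrow margin between 92.5 (IWP2 2) and 92.9 (DMSO 1). The median FPKM of tested genes was also lower in IWP2 (9.91 and 9.81 against 10.4 and 10.4), so this order depends on the scaling. The mean sum differed by -7.22 FPKM (IWP2 minus DMSO), next to an SD of 7.78 between the DMSO libraries, and the exact two-sided permutation test gave p = 0.333. That is the smallest p that 2 libraries against 2 can give, so no single sum, share or ratio in this design can pass a threshold of 0.05. Of the sum, CCND2 made up 16.1% and 13.0% in DMSO and 28.4% and 30.8% in IWP2. CCND3 made up 30.3% and 28.3% in DMSO and 12.6% and 13.9% in IWP2. The share of CCND1 was 53.6% and 58.7% in DMSO and 58.9% and 55.3% in IWP2, with overlapping groups.

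Within a library, the ratio of CCND2 to CCND3 depends on no scaling between libraries. It was 0.533 and 0.461 in the DMSO libraries and 2.25 and 2.21 in the IWP2 libraries (exact permutation p = 0.333, the smallest possible). CCND3 was thus the second most abundant D cyclin in both control libraries, and CCND2 was so in both treated libraries. The ratio of CCND1 to CCND3 was 1.77 and 2.07 in DMSO and 4.67 and 3.97 in IWP2. The ratio of CCND1 to CCND2 was 3.32 and 4.50 in DMSO and 2.07 and 1.80 in IWP2.

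**Figure D3:**
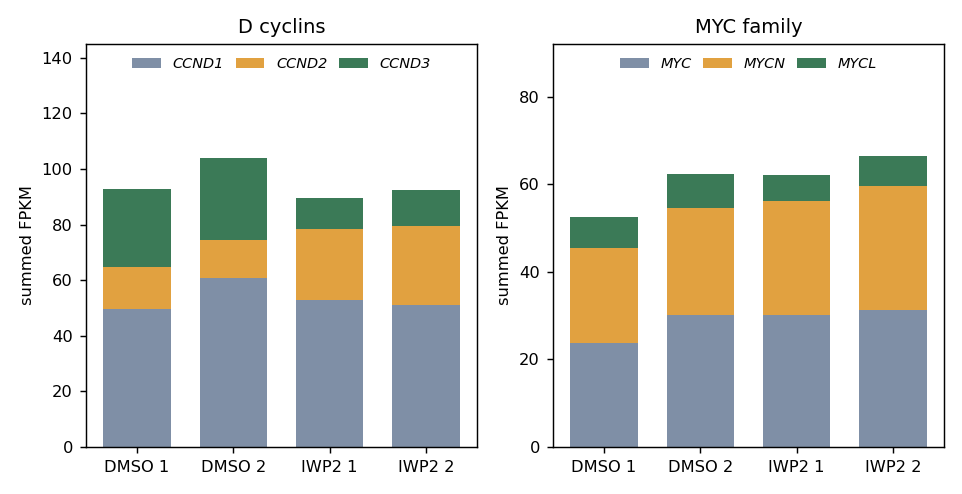
Stacked bars of FPKM per library, starting at 0, for the D cyclins on the left and the MYC family on the right. The D-cyclin totals lie between 89.7 and 103.9 while the CCND2 and CCND3 parts change places, and the MYC family totals lie between 52.6 and 66.4 with a similar make-up in every library.

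None of the 3 MYC family genes was called by limma, and none had an unadjusted p below 0.05. MYC was at 23.8 and 30.2 FPKM in DMSO and at 30.2 and 31.3 in IWP2. The lower IWP2 library was level with the higher DMSO library, so the groups overlapped. The log2 difference of MYC was 0.19 (SE 0.133, 95% interval -0.15 to 0.53, limma adjusted p = 0.40), so its interval contains a fall of at most 0.15 on the log2 scale.

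MYCN, the paralog that is prominent in embryonic and neural progenitors (chr2:15940564-15947007, GRCh38), was at 21.6 and 24.4 FPKM in DMSO and at 26.0 and 28.2 in IWP2. Both treated libraries were above both controls. The log2 difference was 0.23 (SE 0.106, 95% interval -0.04 to 0.50, limma adjusted p = 0.22) and did not pass the test. MYCL, the third paralog (chr1:39895426-39902256, GRCh38), had the lowest level of the 8 genes in every library, at 7.26 and 7.72 FPKM in DMSO and at 5.79 and 6.89 in IWP2. Its log2 difference was -0.21 (SE 0.132, 95% interval -0.55 to 0.12, limma adjusted p = 0.34).

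MYC and MYCN were present at near-equal levels per length in both groups. The ratio of MYC to MYCN was 1.10 and 1.24 in DMSO and 1.16 and 1.11 in IWP2, with an exact permutation p of 1. MYC made up 45.2% and 48.4% of the family sum in DMSO and 48.7% and 47.1% in IWP2, and MYCL made up 13.8% and 12.4% against 9.33% and 10.4%. The family sum was 52.6 and 62.4 FPKM in DMSO and 62.0 and 66.4 in IWP2, and the groups overlapped (exact permutation p = 0.667).

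MAX, the shared dimer partner (chr14:65006174-65102695, GRCh38), was the most abundant of the 8 genes in every library. Its level was 64.9 and 66.6 FPKM in DMSO and 59.6 and 53.6 in IWP2, so both treated libraries were below both controls. The log2 difference was -0.21 (SE 0.0905, 95% interval -0.44 to 0.02, limma adjusted p = 0.19) and did not pass the test. Set against the MYC family sum, MAX was at a ratio of 1.23 and 1.07 in DMSO and of 0.962 and 0.808 in IWP2 (exact permutation p = 0.333, the smallest possible).

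MXD4, a MAX partner that rises in many cells as they stop dividing (chr4:2247432-2262294, GRCh38), was at 17.5 and 14.9 FPKM in DMSO and at 17.2 and 16.0 in IWP2. Both IWP2 values lay between the control values. Its log2 difference was 0.04 (SE 0.118, 95% interval -0.26 to 0.33, limma adjusted p = 0.88), and its sign turned when DMSO library 2 (-0.07) or IWP2 library 1 (-0.01) was left out.

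**Figure D4:**
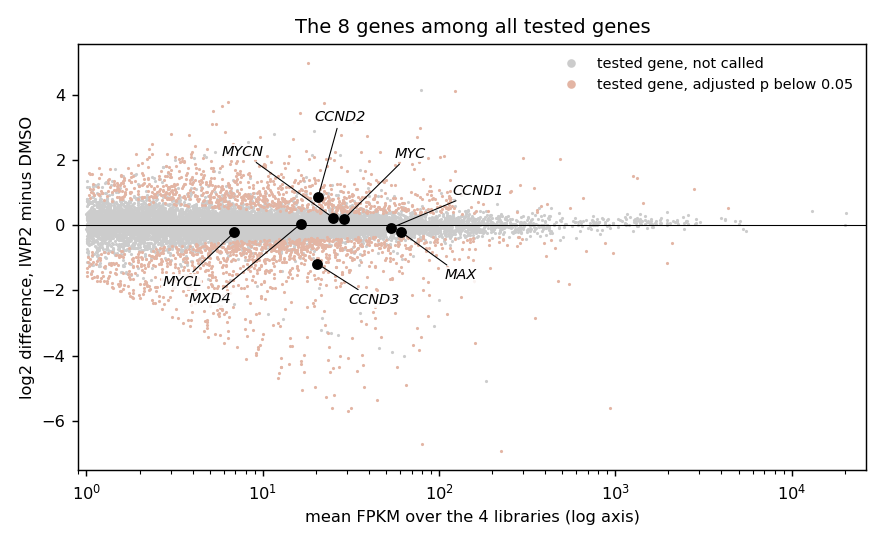
Log2 difference, IWP2 minus DMSO, against mean FPKM over the 4 libraries (log axis) for the 14022 tested genes, with the 8 genes as black points. CCND2 (0.87) and CCND3 (-1.18) stand among called genes of a like level, and the other 6 lie between -0.21 and 0.23.

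By level, the 8 genes lay in the middle to upper range of the tested genes. In DMSO the order was MAX, CCND1, CCND3, MYC, MYCN, MXD4, CCND2 and MYCL. The ranges of CCND3 and MYC overlapped there, as did those of MYC and MYCN and those of MXD4 and CCND2. In IWP2 the order was MAX, CCND1, MYC, MYCN, CCND2, MXD4, CCND3 and MYCL, and of neighbours in that order MYCN and CCND2 overlapped. MAX was above 89.9% of tested genes in DMSO and MYCL was above 41.3%. CCND3 went from above 76.4% of tested genes in DMSO to above 55.7% in IWP2, and CCND2 from above 58.6% to above 75.7%.

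Annotated neighbours could add reads to some of these genes, since the sources used here do not say that strand was used in counting. The overlapping genes on CCND2 (CCND2-AS1 and CCND2-AS2) reached at most 0.399 FPKM, and those on CCND3 were at 0 in every library. MYCNOS, on the strand opposite to MYCN, was at 2.02 and 0.516 FPKM in DMSO and at 1.21 and 0.908 in IWP2. FNTB, which overlaps MAX, was at 8.61 and 9.07 FPKM in DMSO and at 11.0 and 10.9 in IWP2. ORAOV1, which overlaps CCND1, was at 10.5, 11.0, 11.1 and 9.47 FPKM in DMSO 1, DMSO 2, IWP2 1 and IWP2 2. The pseudogenes CCND2P1, CCND3P1 and CCND3P2 were at 0, and MYCLP1 did not exceed 0.145 FPKM.

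The genes whose profiles over the 4 libraries were closest to the called genes were found by the Euclidean distance between log2(FPKM + 1) values centred on each gene's mean. For CCND2 they were SH2B2 (distance 0.029), ABHD8 (0.041) and OBSL1 (0.058). For CCND3 they were TRPV2 (distance 0.042), ST6GALNAC5 (0.079) and EFEMP1 (0.082). With 4 libraries in 2 groups, such a distance mainly reflects a like size of difference between the groups.

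Other members of the MAX network are the MXD and MNT repressors and the glucose-responsive MLX branch. Of the 8 tested, 3 fell and 1 rose, a share of 50% called against 15.2% of all tested genes. The called genes were MXI1 and the MLX branch (MLX, MLXIP and MLXIPL), and MXD1, MXD3, MNT and MGA were not called. The median log2 difference was -0.42, compared with -0.02 over all tested genes. MXI1, a MAX-binding repressor related to MXD4, was at 11.3 and 11.5 FPKM in DMSO and at 5.70 and 5.97 in IWP2 (log2 difference -0.86, SE 0.108, limma adjusted p = 0.0081). MLXIP, which pairs with MLX, was at 8.43 and 10.2 against 5.31 and 5.03 FPKM (-0.74). MLX itself was at 30.9 and 33.3 against 21.5 and 23.3 FPKM (-0.50). MLXIPL, which encodes the carbohydrate-responsive factor ChREBP, was at 0.871 and 0.769 FPKM in DMSO and at 3.01 and 3.29 in IWP2 (1.19). The groups of each of these 4 called genes did not overlap. Across this and the other pathway lists, leaving out Wnt response and the cell type markers, 13 called genes are named, and all 13 lost their call when IWP2 library 1, or IWP2 library 2, was left out, or when genes under the level filter entered the fit. Without DMSO library 1 the call was lost by 6 of them, and without DMSO library 2 by 7. MLX, LDHA and E2F8 also lost it when the spread was not fitted as a trend on level. The log2 difference of each kept its sign in every setting tried.

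Another list held genes that control MYC stability or act with it. Of 15 tested, 1 rose and 1 fell, a share of 13.3% called against 15.2% of all tested genes, with a median log2 difference of -0.03. FBXW7, the ubiquitin ligase subunit that marks MYC and cyclin E for destruction, was at 9.89 and 10.5 FPKM in DMSO and at 17.7 and 16.6 in IWP2 (log2 difference 0.70, SE 0.102, limma adjusted p = 0.013). SKP2, another ubiquitin ligase subunit, known for turning over the inhibitor encoded by CDKN1B, was at 42.2 and 47.1 against 29.6 and 26.9 FPKM (-0.64, SE 0.103, limma adjusted p = 0.016).

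Textbook targets that MYC activates serve ribosome production, nucleotide synthesis and growth. Of 29 tested, 27 were not called, 1 rose and 1 fell, a share of 6.90% called where 15.2% of all tested genes were called, and the median log2 difference was 0.04. TERT, the catalytic subunit of telomerase, was at 1.84 and 1.81 FPKM in DMSO and at 6.60 and 6.25 in IWP2 (log2 difference 1.39, SE 0.134, limma adjusted p = 0.0040). LDHA, which makes lactate from pyruvate, was at 333 and 349 against 249 and 256 FPKM (-0.43, SE 0.078, limma adjusted p = 0.022). Of 6 targets that MYC is known to repress, 2 were called lower and none higher, a share of 33.3% against 15.2% of all tested genes. These were GADD45A, a stress-response gene, at 94.4 and 66.8 against 24.5 and 24.5 FPKM, and CDKN1B, at 15.0 and 15.2 against 10.6 and 10.9 FPKM. The list was not of 1 direction. The uncalled CDKN1A and NDRG1 were also lower. The uncalled CDKN2B (0.906 and 0.431 against 1.45 and 1.63 FPKM) and CEBPA (0.716 and 0.618 against 1.37 and 1.88 FPKM) were higher without overlap. The call of CDKN1B, an inhibitor of cyclin-dependent kinases, was also lost under median scaling and quantile normalization.

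D cyclins act through CDK4 and CDK6. CDK6 was at 8.01 and 10.3 FPKM in DMSO and at 3.27 and 3.17 in IWP2 (log2 difference -1.26, SE 0.156, limma adjusted p = 0.0079). CDK4, a gene named after its values were seen, was at 114 and 131 against 107 and 106 FPKM (-0.20, SE 0.096, limma adjusted p = 0.24). The ratio of CDK4 to CDK6 was 14.3 and 12.7 in DMSO and 32.7 and 33.6 in IWP2 (exact permutation p = 0.333, the smallest possible). Of the 7 tested kinases and CDK inhibitors, CDK6 and CDKN1B fell and none rose, a share of 28.6% called against 15.2% of all tested genes. CDKN1A, the p53-induced inhibitor p21, also named after its values were seen, was at 81.8 FPKM in DMSO library 1 but at 22.8, 17.2 and 19.3 in DMSO library 2 and the IWP2 libraries, and was not called (log2 difference -1.21, limma adjusted p = 0.23). Without DMSO library 1 its log2 difference was -0.31, and without DMSO library 2 it was -2.11 and the gene was called.

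RB and its relatives, the pocket proteins, and the E2F factors act downstream of the D cyclins. Of 12 tested, 2 fell and none rose, a share of 16.7% called against 15.2% of all tested genes, with a median log2 difference of -0.03: E2F7 (-0.63, limma adjusted p = 0.044) and E2F8 (-0.77, limma adjusted p = 0.040), atypical E2Fs that repress transcription. Neither call held when any 1 library was left out, or under median scaling or quantile normalization. Of the 8 tested genes for E, A and B cyclins, CDK1 and CDK2, limma called 0, and 3 had an unadjusted p below 0.05, as had 30.3% of all tested genes. Without DMSO library 1, 1 gene of this list was called. CCNB1, the mitotic cyclin, was at 134 and 168 FPKM in DMSO and at 142 and 154 in IWP2, and CDK1 was at 92.3 and 94.4 against 75.5 and 78.3 FPKM (limma adjusted p = 0.076).

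Among 13 other tested cyclins limma called 0, and 5 had an unadjusted p below 0.05, beside the 30.3% of all tested genes. Without DMSO library 2, 1 of these cyclins was called. The most abundant were CCNI, at 121 and 125 FPKM in DMSO and at 96.2 and 106 in IWP2, and CCNG1, a p53 target, at 125 and 115 against 96.8 and 97.7 FPKM. Of the 3 tested genes for cyclin D turnover limma called 0, and 1 had an unadjusted p below 0.05. That gene was AMBRA1, named after its values were seen, at 13.0 and 14.9 FPKM in DMSO and at 10.2 and 9.41 in IWP2 (log2 difference -0.47, limma adjusted p = 0.056). GSK3B, a kinase that marks cyclin D1 for export and destruction, was at 16.9 and 16.0 FPKM in DMSO and at 17.3 and 14.9 in IWP2. FBXO31, a ubiquitin ligase subunit for cyclin D1, was at 15.7 and 11.4 against 11.0 and 9.73 FPKM.

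**Figure D5:**
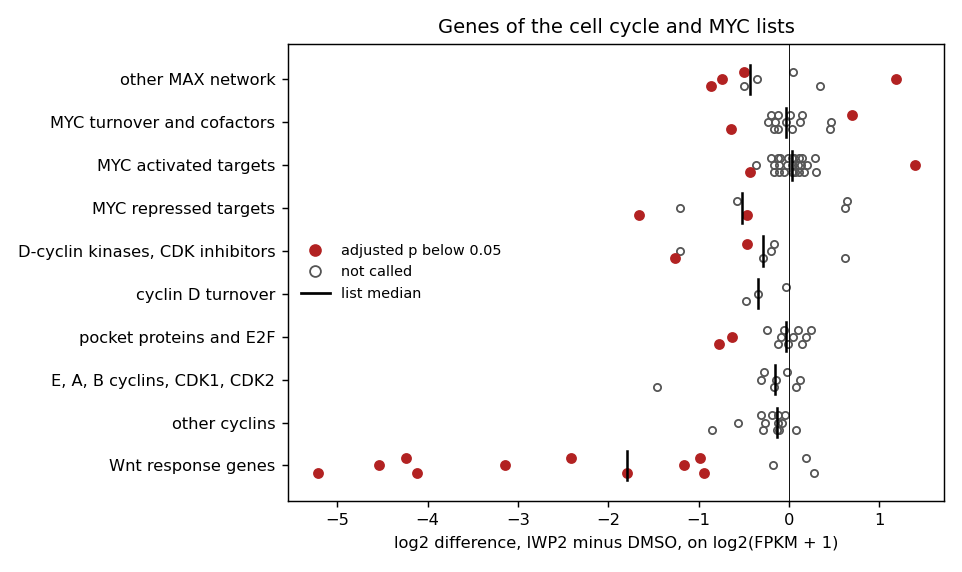
Log2 difference, IWP2 minus DMSO, of each tested gene in 10 lists, with filled points for adjusted p below 0.05 and a vertical bar at each list median. The Wnt response list has its median at -1.79, and the list of MYC activated targets has 27 of 29 genes not called around a median of 0.04.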

How the data were processed

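Gene expression was measured by RNA sequencing of total RNA (Illumina TruSeq kit) from H1 cells at day 2, with 2 DMSO and 2 IWP2 libraries. The authors deposited 1 table with an FPKM value per gene and library, replicates not pooled. Control columns are headed as minus IWP2 with a number and were taken as the DMSO group, and their numbers name the libraries here. The table's header does not state the unit: FPKM was inferred from values that are not whole and from column sums of 616418 to 653850. Per the submitters' processing notes, BWA, Bowtie and RSEM were used with the build hg19, versions not given, although the gene coordinates in the table are GRCh38. Starts were converted to count from 1. No counts were used, and the depth is unknown. Low values put the libraries at 0.892 to 1.10 times the depth of DMSO 1.

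Genes with a mean FPKM of at least 1 were tested with limma 3.58.1 (R 4.3.3, trend on level) on log2(FPKM + 1), which understates changes of low genes. Calls needed a Benjamini-Hochberg adjusted p below 0.05. The fit was tested on simulated data. Sums and ratios were tested by exact permutation, two-sided.

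The 8 genes and the gene lists were chosen with earlier results of these data known. All 8 genes were named, with up to 4 called genes of each list by size of difference (2 by level where none was called), AXIN2, LEF1 and SP5, and 3 nearest profiles for each called gene. Other list genes, and the cell type markers given by name, were named after their values were seen. Alternatives covered pseudocounts of 0.1 and 0.5, no level filter, a minimum of 5, median scaling, quantile normalization, no trend, a replicate block and leaving out each library. Promoter windows came from RefSeq, GRCh38.p14, and their annotation from GENCODE on GRCh38.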

Additional observations from a re-analysis of the deposited data

How the results depend on the processing

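Over 12 alternatives, CCND3 kept its direction in all 12 and its call in 11, with log2 differences of -1.27 to -1.10, and CCND2 kept its direction in all 12 and its call in 9, with 0.80 to 0.95. MYC, MYCN, MYCL, MAX, MXD4 and CCND1 were called in none. Leaving out 1 library at a time moved CCND1 between -0.22 and 0.063, MXD4 between -0.074 and 0.15, CCNB1 between -0.18 and 0.15 and GSK3B between -0.13 and 0.066. It gave 97 to 724 genes called higher (946 with all libraries), 238 to 819 called lower (1183) and 0 to 2 of the 8 genes called. The lone library of a group was then assumed to vary like the other group, and fewer samples entered each fit. Without the level filter, 118 genes were called higher, 263 lower and 1 of the 8 genes, with more genes of low level in the fit. Median scaling turned CCNB1 to 0.055 and GSK3B to 0.035, and quantile normalization turned them to 0.011 and 0.043, all far from a call. These scalings moved the median log2 difference of all genes from -0.02 to 0.05 and 0.02, and the share of calls that were higher from 44.4% to 52.8% and 50.7%.

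The replicate block gave 862 genes higher and 1065 lower and changed no call among the 8 genes. Among the other genes named, CDKN1B lost its call under the block (adjusted p = 0.061). Same-numbered libraries deviated together with a correlation of 0.152 over 14022 genes, but nothing in the labels ties a number to a shared batch, so the numbers were not taken as a pairing. Counts of called genes within lists moved with the setting, from 0 to 4 in the other MAX network, 0 to 2 in MYC activated targets, 0 to 1 in the other cyclins (1 with the replicate block, a pseudocount of 0.1, a minimum of 5 and without DMSO replicate 2), 0 to 1 in cyclin D turnover (1 with a minimum of 5) and 6 to 10 in Wnt response genes. The 2 libraries per group and the unknown depth limit the precision of every value.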
